A study of Bos taurus with 9 samples.

Results

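Peaks of histone H3 acetylated at lysine 27 (H3K27ac) in cattle rumen tissue were compared between control and butyrate treatment. The members were the peaks of the 2 libraries labelled with this antibody that lie on chromosomes 1 to 29, which made 69726 peaks. They came from 70809 H3K27ac peaks on all chromosomes and from 86291 peaks in the 8 lists of the series, which also cover RNA polymerase II (RNA pol II), H3K9me3 and H3K9ac. Chromatin immunoprecipitation and sequencing (ChIP-seq) had been run on rumen tissue of Holstein cattle, with a single library for each antibody in each condition and 1 of input chromatin. The control tissue was taken before treatment and the other tissue after 24 h of butyrate, which according to the methods of the study was infused, with the rumen sampled by biopsy. The number of animals behind each library, their age and whether both tissues came from the same animal are not given in the labels. A biopsy of the rumen wall holds several cell types, and in such bulk tissue fewer cells that carry a mark and less of the mark per cell cannot be told apart.

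H3K27ac is placed by acetyltransferases at nucleosomes of active promoters and enhancers and is removed by histone deacetylases. Butyrate, a short-chain fatty acid, is made by microbes of the rumen from plant carbohydrates, is taken up by the rumen epithelium as fuel, and inhibits histone deacetylases. Active promoters and groups of neighbouring enhancers carry the mark over several nucleosomes in a row, so H3K27ac peaks of a tissue tend to lie close together in gene-rich parts of the genome and to be rare elsewhere. A peak here is a stretch in which the reads of 1 library exceeded those of the input by the threshold of the peak caller, and its edges are the positions where that excess began and ended.

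Each condition had 1 library, so no test between conditions was possible and no spread between replicates can be given. The 95% intervals below cover counting error only, with peaks, gaps, regions or bins taken as independent. They do not cover the differences between animals, biopsies or immunoprecipitations. The labels place the control library on lane 1 and the butyrate library on lane 3, so lane and condition cannot be told apart. Both lists were called against the same input, they hold positions only, and read depth was not corrected for.

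H3K27ac was called at fewer sites after butyrate. The control list held 36963 peaks over 13.4 Mb and the butyrate list 32763 peaks over 12.1 Mb, a difference of 4200 peaks or 11.4% of the control number. The log2 ratio of butyrate to control was -0.17 for the number of peaks (95% interval -0.20 to -0.15) and -0.15 for the length they covered. The median width was 294 bp in control and 302 bp after butyrate. In the lists as a whole, the lower coverage therefore went with a lower number of peaks and not with a lower median width. Peaks matched between the lists, described below, were slightly more often narrower than wider after butyrate. With peaks of at least 300 bp only, the log2 ratio of number was -0.10. Over a span of 2509 Mb, the density was 14.7 peaks per Mb in control and 13.1 peaks per Mb after butyrate.

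The number of peaks was lower after butyrate on all 29 of 29 chromosomes. The log2 ratio ranged from -0.26 to -0.04 with a median of -0.17, and the interval of 24 chromosomes lay below 0. The interval of each of the 29 chromosomes held the ratio of the whole list. These intervals treat the lists as independent counts, although many peaks were found in both. They can therefore be too wide to show whether a chromosome stood apart from the others. The lowest ratios were on chromosome 27, from 318 to 266 peaks (-0.26), chromosome 26, from 767 to 644 peaks (-0.25), and chromosome 18, from 1879 to 1580 peaks (-0.25). For chromosome 27 the direction depended on narrow peaks, since its log2 ratio was 0.0111 with peaks of at least 300 bp. The highest ratios were on chromosome 20, from 588 to 572 peaks (-0.04, interval -0.21 to 0.13), chromosome 4, from 921 to 883 peaks (-0.06), and chromosome 28, from 684 to 641 peaks (-0.09). With peaks of at least 300 bp the ratios of chromosomes 20 and 4 were also above 0, at 0.051 and 0.0033. With the same number of widest peaks in each list, the ratio of the whole list is 0 by construction. Chromosomes with the smallest drop then tend to lie above 0. In that setting the ratio of chromosome 20 was 0.18 (interval 0.0045 to 0.36), that of chromosome 4 was 0.0998 and that of chromosome 28 was 0.095. On chromosome 20 the covered length was 199.867 kb in control and 200.973 kb after butyrate, the only chromosome of the 29 on which it was not lower after butyrate.

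The order of the chromosomes by density was nearly the same in both conditions. Chromosome 19 was the densest, with 36.2 peaks per Mb in control and 31.1 peaks per Mb after butyrate, followed in control by chromosome 18 with 28.5 and 23.9 peaks per Mb. Chromosome 6 was the sparsest in control, with 7.14 peaks per Mb against 6.49 peaks per Mb after butyrate, next to chromosome 27 with 7.24 and 6.06 peaks per Mb. Over the 29 chromosomes, which share the input and the sequence to which reads can be aligned, the densities of the lists had a Pearson r of 0.997. Control density and log2 ratio had a Pearson r of -0.38 and a Spearman rho of -0.33 over the same 29 chromosomes, and the denominator of the ratio is part of both measures.

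**Figure D1:**
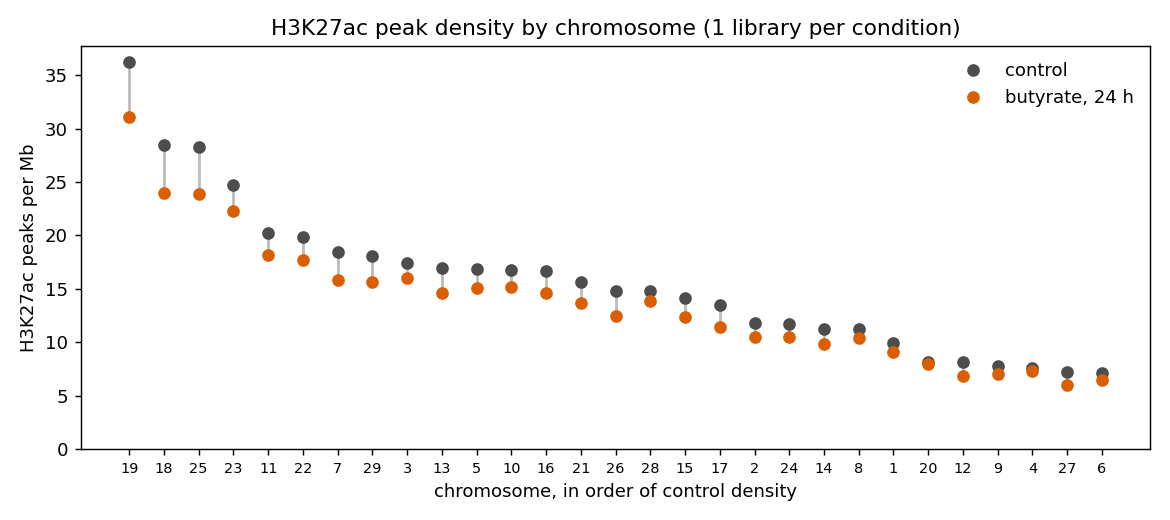
H3K27ac peaks per Mb (y axis) on each of chromosomes 1 to 29, ordered on the x axis by control density, with 1 point for the control library and 1 for the butyrate library. The butyrate point lies below the control point on all 29 chromosomes, from 36.2 against 31.1 peaks per Mb on chromosome 19 to 7.14 against 6.49 on chromosome 6.

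Peaks were unevenly spaced in both conditions. A gap is the distance from the end of a peak to the start of the next on its chromosome. The median gap was 5323 bp in control and 5225 bp after butyrate, whereas the mean was 66.7 kb and 75.2 kb, so most peaks had a near neighbour and a small number of long empty stretches held much of the length. Gaps above 1 Mb were 420 in control and 440 after butyrate and made up 38.0% and 39.7% of all gap length. The SD of the gaps was 4.57 times their mean in control and 4.34 times after butyrate. Peaks placed at random at a constant rate would have gaps with an SD close to their mean.

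The number of gaps changed unevenly over gap lengths, and intermediate gaps fell most. A peak missing from a list takes away the gaps on its sides and leaves a longer gap. Any thinning of a list thus refills the longer classes from the shorter ones, and the classes do not show where peaks were lost. Gaps above 2 to 5 kb went from 3664 to 2896, a change of -21.0% (log2 ratio -0.34, interval -0.41 to -0.27). Gaps above 5 to 10 kb changed by -19.6% and those above 10 to 50 kb by -15.9%, from 8349 to 7018. The short gaps, those between neighbouring peaks of one acetylated stretch, changed less, by -5.74% up to 100 bp, -8.37% above 100 to 200 bp and -7.32% above 200 to 500 bp. Gaps above 100 to 500 kb were 3302 in control and 3296 after butyrate. The interval of the gaps above 2 to 5 kb did not overlap the interval of any class up to 2 kb.

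The intermediate gaps were also fewer when only peaks of at least 300 bp were kept, a choice made after seeing the data. Their log2 ratios were -0.21 above 2 to 5 kb, -0.24 above 5 to 10 kb and -0.20 above 10 to 50 kb. They stood apart less clearly than in the full lists, since the ratios were -0.18 up to 100 bp (interval -0.37 to 0.012), -0.15 above 100 to 200 bp and -0.15 above 50 to 100 kb, with overlapping intervals. Between these, the gaps above 200 to 500 bp were 1291 in control and 1294 after butyrate, those above 500 bp to 1 kb were 1039 and 1036, and those above 1 to 2 kb were 1012 and 1066. The share of gaps up to 1 kb was 31.8% in control (interval 31.4% to 32.3%) and 33.2% after butyrate (32.7% to 33.7%). At 5 kb the shares were 49.2% and 49.6%, and their intervals overlapped. At 100 kb the share was 88.4% in control and 86.9% after butyrate.

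**Figure D2:**
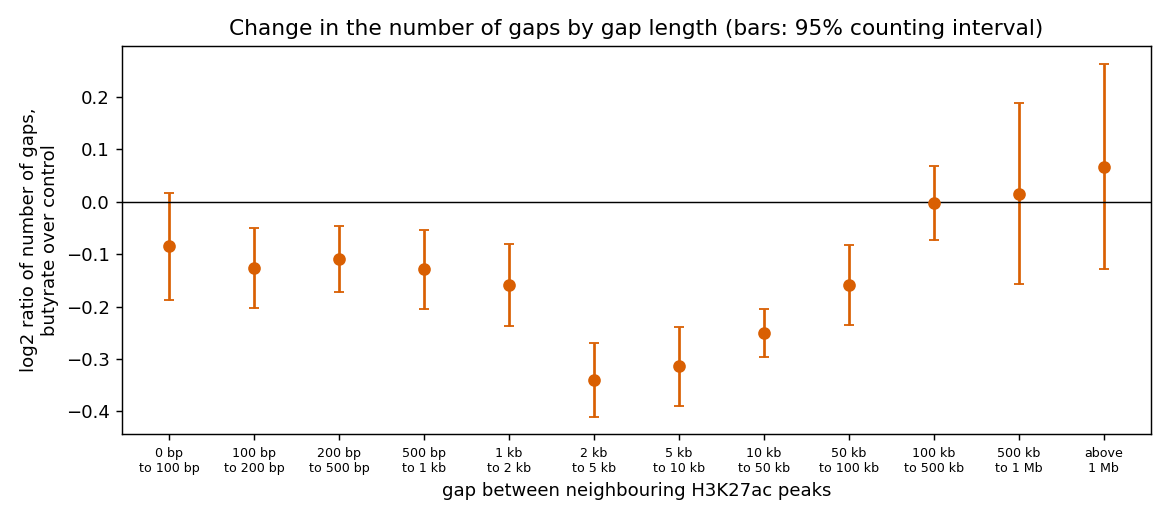
Log2 ratio of the number of gaps between neighbouring H3K27ac peaks, butyrate over control (y axis), in 12 classes of gap length (x axis), with bars for the 95% counting interval. The lowest ratio is -0.34 for gaps above 2 to 5 kb, and the 3 classes above 100 kb lie near or above 0.

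Where the same neighbouring sites were called in both conditions, the distance between them was nearly the same. In 8589 cases 2 neighbouring peaks had 1 counterpart each and no other peak between them in either list. The median gap of these was 1229 bp in control and 1215 bp after butyrate, and the median change per gap was 4 bp, with quartiles of -69 bp and 87 bp. The gap was longer after butyrate in 51.6% and shorter in 45.6%. Sites called in both conditions thus kept their distance to within 100 bp in most cases.

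The longest empty stretches lay at the same places in both lists. On chromosome 20 no control peak was called from 42061268 to 56054908, which is 14.0 Mb, and 1 butyrate peak lay inside it. The longest gap of the butyrate list was on the same chromosome, from 42061282 to 56040694. The next were 10.2 Mb in control on chromosome 6, from 74920847 to 85152605, and 10.1 Mb on chromosome 17, from 18998743 to 29122369. After butyrate the corresponding gaps ran from 74193467 to 84998561 on chromosome 6 (10.8 Mb, 1 control peak inside) and from 18991377 to 29122329 on chromosome 17 (10.1 Mb, 2 control peaks inside). Positions are those of the files, in the build UMD3.1. Which genes lie in these or any other stretches was not analysed here.

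Peaks were then chained into clusters, in which each peak lies at most 5 kb from the next. There were 18774 clusters in control and 16533 after butyrate, and these numbers include lone peaks. Lone peaks went from 10311 to 8924, clusters of 2 from 4557 to 4072, clusters of 3 to 4 from 2682 to 2475, clusters of 5 to 9 from 1053 to 908, and clusters of 10 or more from 171 to 154. The share of peaks in clusters of 3 or more was 47.4% in control (interval 46.9% to 48.0%) and 47.9% after butyrate (47.4% to 48.4%), and the intervals overlapped. The direction of this difference depended on which peaks were kept. At the same distance it was 1.32 percentage points (interval 0.37 to 2.27, butyrate minus control) with peaks of at least 300 bp, 3.62 (2.86 to 4.38) with an equal number of widest peaks, and -0.96 (-1.68 to -0.25) with peaks up to 1 kb apart joined. At a cluster distance of 2 kb the shares were 34.2% and 35.9%, and their intervals did not overlap. All of these intervals treat peaks as independent, although peaks enter a cluster together and many were found in both lists. Whether the intervals overlap or hold 0 therefore cannot decide on a difference in clustering.

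The largest clusters were called at the same loci in both lists. The largest of all lay on chromosome 18, from 48660044 to 48705233 in control, where 34 peaks within 45.2 kb covered 16.1 kb, against 29 butyrate peaks that covered 13.1 kb. The second of the control list, on chromosome 13 from 61780306 to 61817397, held 27 control and 17 butyrate peaks, over 9.25 kb and 7.16 kb. The third, on chromosome 19 from 42485553 to 42515900, held 26 control and 24 butyrate peaks. These 3 were chosen and bounded by the control list, which favours a higher control number. The 3 largest of the butyrate list were those on chromosomes 18 and 19, with 29 and 25 butyrate peaks against 33 and 25 control peaks in the same bounds, and a cluster of 25 peaks on chromosome 5 from 104513623 to 104555689, where the control list held 23.

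A peak was called found when it overlapped a peak of the other list by at least 1 bp. By this rule 22217 control peaks (60.1%, interval 59.6% to 60.6%) were found after butyrate, and 22352 butyrate peaks (68.2%, interval 67.7% to 68.7%) were found in control. Lone control peaks were found in 47.8%, those of clusters of 2 in 62.9%, of 3 to 4 in 64.1%, of 5 to 9 in 66.3% and of 10 or more in 71.4%. For butyrate peaks the shares were 61.6% for lone peaks and 74.6% for those of clusters of 10 or more. The share thus rose with the size of the cluster in control, and after butyrate it was lowest for lone peaks and highest in the largest clusters.

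Loss of a whole cluster was seen mostly for lone peaks and pairs. No peak was found after butyrate in 5378 lone control peaks, 789 clusters of 2, 160 clusters of 3 to 4, 8 clusters of 5 to 9 and 0 of the 171 clusters of 10 or more. Loss of some peaks within a cluster was common, since all peaks were found in only 4 of those 171. More peaks in a cluster give more chances of an overlap, so these counts of whole clusters carry less than the shares per peak.

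Width was tied to both measures, so the shares were also read within classes of width. Among control peaks of 200 bp, the smallest width in the lists, 16.2% (interval 14.3% to 18.3%) were found when no other control peak lay within 5 kb and 40.5% (35.5% to 45.7%) when 4 or more did. Above 200 to 300 bp the shares were 35.0% and 55.6%, and above 300 to 500 bp they were 61.1% and 78.6%. Above 500 bp they were 91.1% and 94.6%. The share was higher with 4 or more neighbours than with none in every width class, by 24.3 percentage points in the narrowest peaks and 3.46 in the widest. For butyrate peaks found in control the corresponding shares were 32.0% and 47.3% at 200 bp and 92.7% and 95.05% above 500 bp. Where a peak has many neighbours the other list also tends to be dense, so an overlap is likelier there by position alone. How much this added to these shares, or to those by cluster size, was not tested.

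**Figure D3:**
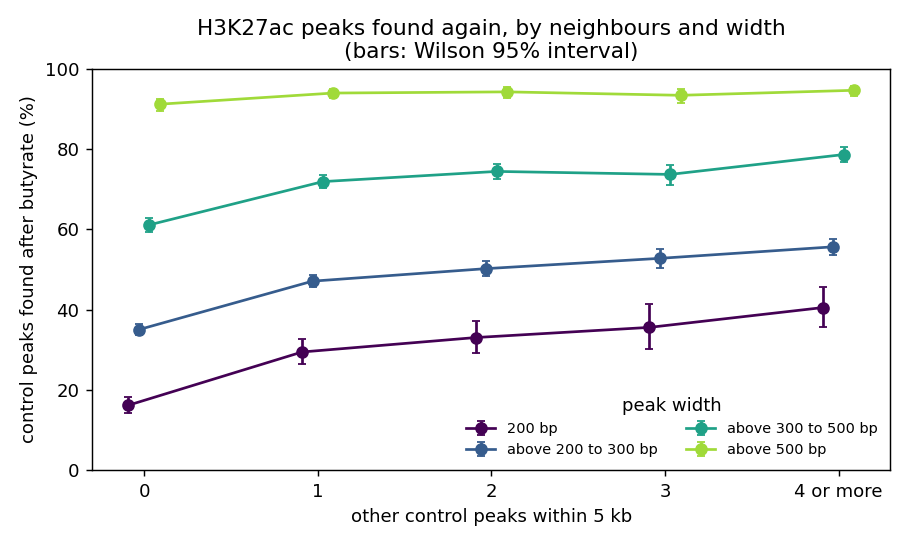
Share of control H3K27ac peaks found after butyrate (y axis, percent) by the number of other control peaks within 5 kb (x axis), with 1 line per class of peak width and bars for the Wilson 95% interval. The lines rise from 16.2% to 40.5% for peaks of 200 bp and from 91.1% to 94.6% for peaks above 500 bp.

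Close neighbours did not always share their fate. Of 11757 pairs of neighbouring control peaks with a gap of at most 1 kb, both were found at separate butyrate peaks in 44.1% and at a single shared butyrate peak in 9.25%. Only 1 of the 2 was found in 35.9% and neither in 10.8%. An acetylated stretch called as 2 peaks in control was therefore most often called at both places after butyrate, but in more than 1 in 3 cases at only 1. Of all control peaks 60.1% were found, so mixed outcomes would arise even if each peak were found or not on its own. How far these shares differ from that case was not tested.

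Regional gain and loss were counted in 2523 bins of 1 Mb, of which 493 held no peak of either list. Fewer butyrate than control peaks lay in 1206 bins (47.8%), equal numbers in 782 (30.99%) and more in 535 (21.2%). The median bin held 7 control and 6 butyrate peaks, and the fullest bin of each list held 127 and 117. The numbers in the 2 lists had a Pearson r of 0.979 and a Spearman rho of 0.974 over the 2523 bins, which share the input and the alignable sequence. The densest 10% of bins held 42.1% of control and 41.7% of butyrate peaks.

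Bins with at least 10 peaks over both lists were called when the numbers differed at least 1.5-fold. Of 1464 such bins, 191 (13%) were lower after butyrate and 60 (4.1%) were higher. With butyrate numbers scaled to the control total the calls were 87 lower and 112 higher, so the excess of lower bins came with the drop of the whole list. Each difference was also divided by its counting error after scaling to the list totals. The SD of this standardised difference was 0.715, where independent counts would give 1, and 8 bins lay below -2 and 6 above 2. The bins thus followed each other across the lists more tightly than independent counts do. Between 1042 pairs of neighbouring bins the log2 ratios had a Pearson r of 0.069, so gain or loss in a bin told little of the next.

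**Figure D4:**
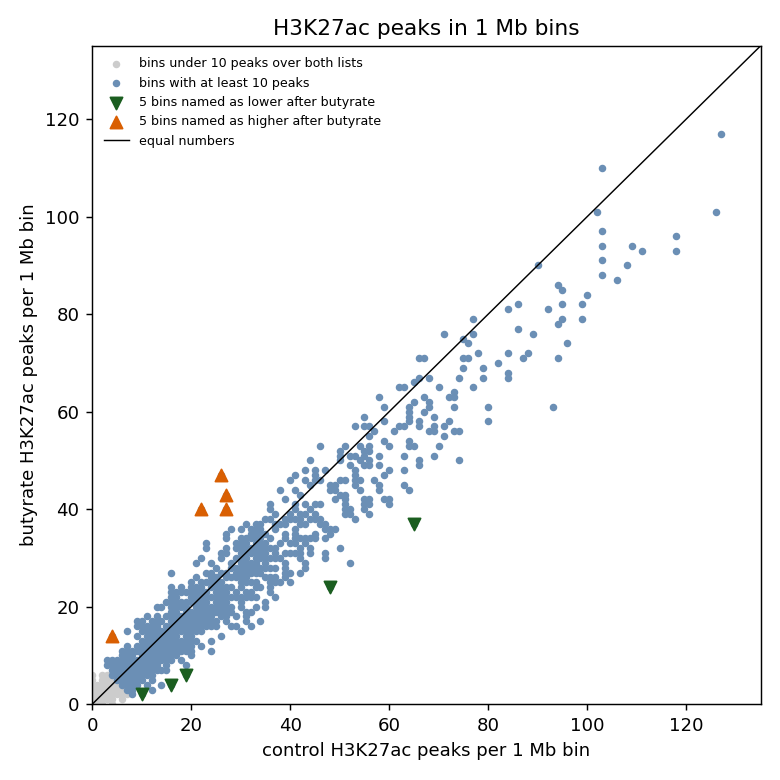
Number of H3K27ac peaks per 1 Mb bin in the control list (x axis) and the butyrate list (y axis), with 1 point per bin and a line of equal numbers. Most points lie close to or below the line, and triangles mark the 5 bins named as lower, such as 65 against 37 peaks, and the 5 named as higher, such as 26 against 47.

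The drop was present from sparse to dense bins and larger toward one end of the chromosomes. By the sum of peaks in a bin, the log2 ratio was -0.38 at 1 to 2 peaks (157 bins, interval -0.77 to 0.0072), -0.18 at 3 to 5 peaks, -0.16 at 11 to 20, -0.15 at 21 to 50 and -0.19 above 100. Cattle chromosomes 1 to 29 have their centromere at one end, where positions begin. With each chromosome cut into 5 equal parts from that end, the log2 ratios were -0.17, -0.14, -0.15, -0.14 and -0.24, the last with an interval of -0.28 to -0.20. The last of the 5 parts was also the densest, with 20.7 control and 17.6 butyrate peaks per bin against 12.4 and 11.01 in the first. It held 28.9% of control peaks and 38.3% of the drop in number. The ratio of the last part was below that of the rest on 22 of 29 chromosomes. With peaks of at least 300 bp, chosen after seeing the data, the last part no longer stood apart, at -0.15 against -0.16 in the first and -0.05 to -0.08 in the 3 between.

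The bins with the lowest and highest standardised difference are described here by the values that chose them, with no test. On chromosome 14, the bin from 1000001 to 2000000 went from 65 to 37 peaks and from 24.1 to 13.9 kb under peaks. In this bin 30 control peaks had no butyrate counterpart and 3 butyrate peaks had no control counterpart, so the change was nearly all loss. Its peaks of at least 300 bp went from 37 to 21. The next bin on that chromosome went from 95 to 79 peaks. H3K9ac, a further acetyl mark of active promoters that was called in separate libraries, had 5 peaks in the bin in control and 6 after butyrate.

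On chromosome 25, the bin from 33000001 to 34000000 went from 48 to 24 peaks, but its peaks of at least 300 bp were 15 and 14. The loss there was therefore one of narrow peaks, and H3K9ac had 4 peaks in each condition. On chromosome 5, the bin from 98000001 to 99000000 went from 16 to 4 peaks, with 13 of the control peaks not found. On chromosome 24, the bin from 58000001 to 59000000 went from 19 to 6, and on chromosome 15, that from 8000001 to 9000000 went from 10 to 2. Peaks of at least 300 bp went from 8 to 3 in the chromosome 5 bin and from 7 to 4 in the chromosome 24 bin. For both bins, the interval of the ratio of these wider peaks included 0. In the chromosome 15 bin such peaks went from 1 to 0. The chromosome 15 bin was an island, since neither list had a peak in the bin on either side.

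By the number of peaks gained and by the standardised difference, gain was highest on chromosome 4. Its bin from 70000001 to 71000000 went from 26 to 47 peaks and from 8.17 to 14.7 kb, with 27 butyrate peaks that had no control counterpart and 7 control peaks that had no butyrate counterpart. Its peaks of at least 300 bp went from 10 to 19, a log2 ratio of 0.93 with an interval of -0.25 to 2.19 that included 0. With peaks up to 1 kb apart joined the ratio was 0.69 (-0.21 to 1.62). It was bounded on both sides, with 7 control and 2 butyrate peaks in the bin before and 9 and 7 in the bin after. H3K9ac had 3 peaks in this bin in each condition. The bin from 93000001 to 94000000 of the same chromosome went from 27 to 43 peaks, of which those of at least 300 bp were 14 and 15, and H3K9ac had 9 peaks there in control and 3 after butyrate.

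On chromosome 7, the bin from 92000001 to 93000000 went from 22 to 40 peaks, and 20 butyrate peaks there had no control counterpart. Peaks of at least 300 bp were 11 and 13 in that bin, so the gain was mainly one of narrow peaks. On chromosome 12, the bin from 48000001 to 49000000 went from 27 to 40 peaks, with 26 gained and 12 lost sites in the same Mb. On chromosome 14, the last bin, from 84000001 to 85000000, is not a full Mb, since the listed peaks of the chromosome end within it, and went from 4 to 14, while its peaks of at least 300 bp were 3 in both lists. Of the 5 named bins with gain, those on chromosome 4 from 93000001 and on chromosome 12 had intervals of the ratio that included 0.

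The lists were next merged into 46287 regions, each a stretch covered by overlapping peaks of either list. Of these, 21130 (45.65%) held peaks of both conditions, 14746 (31.9%) of control only and 10411 (22.5%) of butyrate only. Regions of both conditions were wide, with a median of 462 bp, against 243 bp in control only and 248 bp after butyrate only. Part of this is fixed by construction, since a region of both conditions joins overlapping peaks and the others are single peaks. Taken as single peaks, those found in the other list had a median width of 358 bp in control and 348 bp after butyrate. Regions of both conditions also carried peaks of H3K9ac more often. Control H3K9ac peaks overlapped 15.1% of the regions of both conditions (interval 14.6% to 15.6%), 1.58% of those of control only and 1.79% of those of butyrate only. The butyrate list of H3K9ac gave 15.3%, 1.89% and 2.07%.

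The regions of 1 condition therefore had like shares of H3K9ac in whichever condition H3K9ac was measured. Among regions above 300 to 500 bp wide, control H3K9ac overlapped 10.6% of those of both conditions, 2.76% of control only and 2.94% of butyrate only. The difference was thus present within a class of region width. The single peaks behind a region of both conditions can be narrower than the region, so peak width was not matched. RNA pol II, the enzyme that transcribes protein-coding genes, was called at 0.97% of the regions of both conditions in control and at 1.73% after butyrate. The shares were 0.23% and 0.35% for regions of control only and 0.21% and 0.41% for those of butyrate only. The RNA pol II list was itself longer after butyrate, with 1242 peaks against 673 in control. Higher shares after butyrate therefore cannot be read as a change particular to these regions. H3K9me3, a mark of silent heterochromatin, was called at few regions. In control it lay at 0.13% of the regions of both conditions, 0.24% of those of control only and 0.12% of those of butyrate only. These were 27, 36 and 12 regions. After butyrate the shares were 0.19%, 0.22% and 0.077%, from 41, 32 and 8 regions, and the intervals of the first and second overlapped. All of these lists share the input library.

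Regions of 1 condition followed one another slightly more often than their share of all regions. After a control-only region the next was control only in 35.3% (interval 34.5% to 36.1%), against 31.9% of all regions. After a butyrate-only region the next was butyrate only in 25.5% (24.7% to 26.4%), against 22.5%. Runs of 5 or more were 158 of 9545 runs for control only, 49 of 7753 for butyrate only and 637 of 10641 for both conditions. Control-only regions were more numerous than butyrate-only ones, which by itself gives more long runs. The longest runs of lost sites held 9 regions each, on chromosome 12 from 13784304 to 14134305 (350.0 kb) and from 78304397 to 78429920 (126 kb). The longest runs of gained sites held 9 regions on chromosome 5 from 21294534 to 21875191 (581 kb) and 8 on chromosome 1 from 23928476 to 25004588 (1076 kb). The 350.0 kb run held 2.60 kb under peaks, so these runs were made of narrow peaks that lay far apart.

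Gained sites lay closer to sites of the other list than lost sites did. The median distance from a butyrate-only peak to the nearest control peak was 1350 bp, and that from a control-only peak to the nearest butyrate peak was 2680 bp. Within 1 kb lay 44.5% of butyrate-only peaks (interval 43.6% to 45.5%) and 36.4% of control-only peaks (35.6% to 37.2%). The control list is the longer of the 2, which brings its peaks closer to any site. With the same number of widest peaks in each list the difference went from 8.13 to 4.14 percentage points. Beyond 100 kb lay 748 control-only peaks (5.07%) and 390 butyrate-only peaks (3.75%).

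The most remote sites were narrow. The 2 control-only peaks farthest from any butyrate peak were neighbours on chromosome 7, from 95440649 to 95440848 and from 95448081 to 95448340, at 1.91 Mb and 1.90 Mb. The farthest butyrate-only peaks lay on chromosome 12 from 7338642 to 7338842, at 3.83 Mb from a control peak, and on chromosome 18 from 29807055 to 29807259, at 3.25 Mb. All 4 were between 200 and 260 bp wide.

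Edges were compared in 19099 pairs, in which a control and a butyrate peak overlapped each other and no other peak. Shifts are given as outward, so that a positive value means a wider butyrate peak. The median shift was 0 bp at the start and 0 bp at the end, and the median of their sum was -4 bp, with quartiles of -80 bp and 64 bp. The butyrate peak was wider in 8798 pairs (46.1%, interval 45.4% to 46.8%), narrower in 9816 (51.4%) and equally wide in 485. Sites kept after butyrate were thus slightly more often narrower than wider. From the 5th to the 95th percentile the start shift ran from -215 to 200 bp. The centre of a pair moved by a median of 44 bp and at most 552 bp.

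Both edges stayed within 50 bp in 5972 pairs (31.3%). Both moved outward in 14.7% and both inward in 18.4%. Both moved toward lower positions in 22.3% and toward higher positions in 22.2%, so that a sideways slide of the whole peak was more frequent than a symmetric change of width, with no preferred direction. In pairs of 200 to 250 bp mean width the outward shifts of the edges had a Pearson r of -0.82 over 2953 pairs, and in pairs of 1000 bp or more the r was -0.07 over 239 pairs. No peak can be narrower than 200 bp, which ties the edges of narrow peaks together.

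Many edges were at exactly the same base in both lists. The start was unmoved in 2304 pairs (12.1%), whereas each outward or inward shift of 1 to 10 bp held between 86 and 121 pairs, with a mean of 108, so that 0 bp was 21.3 times as frequent. The end was unmoved in 2332 pairs (12.2%), which is 22.5 times the mean of 104 pairs per neighbouring shift. At least 1 edge was unmoved in 22.4% of pairs and both in 359 pairs (1.88%). Of the pairs with an unmoved start, 15.6% (interval 14.2% to 17.1%) also had an unmoved end, against 11.7% of the others.

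The excess of unmoved edges was not particular to H3K27ac. Among 16 other pairs of lists with at least 100 paired peaks, across antibodies and conditions, equal starts made up 2.04% to 14% and were 5.71 to 53.3 times as frequent as the shifts of 1 to 10 bp. All lists were called against the same input library. The part of the input in these shared edges was not tested.

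**Figure D5:**
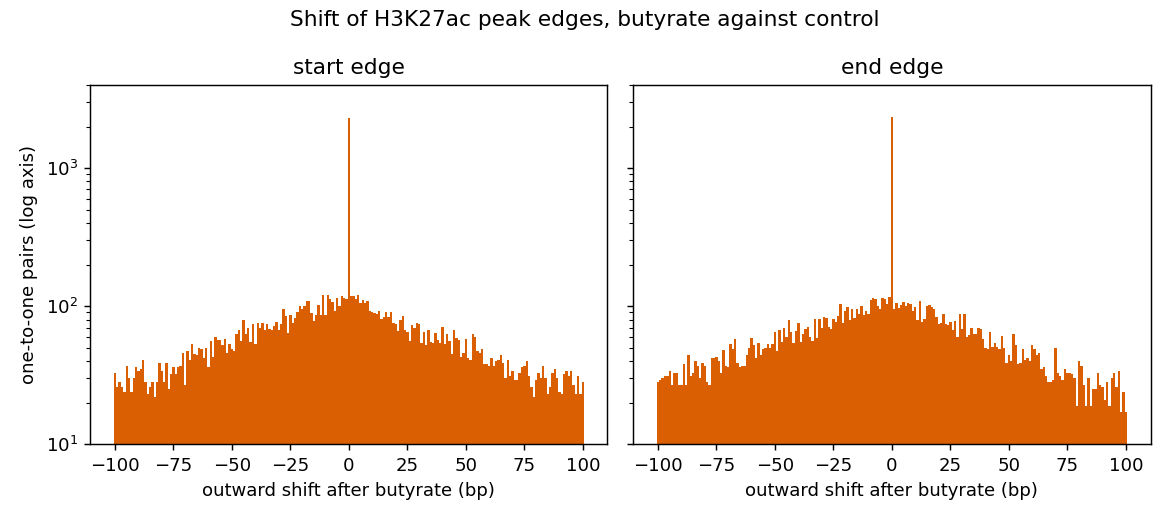
Number of paired H3K27ac peaks (y axis, log scale) at each outward shift of the start edge (left panel) and the end edge (right panel) after butyrate, in bp (x axis, from -100 to 100). A spike at 0 bp, of 2304 pairs at the start and 2332 at the end, stands above about 100 pairs at each shift next to it.

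A few sites changed much more than the rest. The largest outward change was on chromosome 11, where a control peak of 303 bp from 69575188 to 69575490 was matched by a butyrate peak of 1271 bp from 69575179 to 69576449. The start moved by 9 bp and the end by 959 bp, so the called peak was extended at 1 side. On chromosome 14 a peak of 200 bp from 22778032 to 22778231 was matched by 1 of 1144 bp from 22777177 to 22778320. On chromosome 19 a peak of 686 bp from 11036941 to 11037626 was matched by 1 of 1579 bp with the same start that ended at 11038519. All 3 grew mainly at a single edge.

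The largest inward change was on chromosome 18, where a control peak of 1501 bp from 35472547 to 35474047 was matched by a butyrate peak of 238 bp from 35473041 to 35473278. On chromosome 16 a peak of 1278 bp from 1684678 to 1685955 was matched by 1 of 338 bp from 1685034 to 1685371. On chromosome 4 a peak of 1133 bp from 89975400 to 89976532 was matched by 1 of 246 bp from 89975916 to 89976161. In all 3 both edges of the called peak moved inward by at least 356 bp, unlike the 3 that grew mainly at 1 side. These pairs were picked from 19099 by the sum of their shifts, so the contrast does not describe the other pairs.

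Joining and splitting of peaks were about as frequent. There were 1053 butyrate peaks, 3.21% of their list, that each overlapped several control peaks, and 1174 control peaks, 3.18% of theirs, that each overlapped several butyrate peaks. The median gap closed within such peaks was 106 bp when butyrate peaks bridged it and 98 bp when control peaks did, which is less than the length of DNA wound around a nucleosome. The butyrate peak on chromosome 7 from 13861700 to 13863875 took in 5 control peaks, the most of any, and that on chromosome 4 from 25095618 to 25097811 took in 4. In the other direction no control peak took in more than 3 butyrate peaks, as on chromosome 2 from 31531447 to 31533030 and chromosome 3 from 14587320 to 14589560.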

How the data were processed

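According to the study's methods and the submitters' processing notes, the authors aligned reads to the bovine build UMD3.1 with BWA at default settings, kept uniquely aligned reads with fewer than 2 mismatches, and called peaks for each library separately with MACS2 at default settings against 1 shared input. Trim Galore 0.4.1 is also named in the notes. The series text gives single-end reads of 75 nt and the methods give paired-end reads. The deposited lists hold 3 columns (chromosome, start, end) and no score, p-value or read number. The mapping summary of the study lists more uniquely aligned reads for the butyrate H3K27ac library than for the control one, and these totals were used for no value. Depth limits which peaks could be called, and its part in the results was not tested.

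Libraries were grouped by their labelled antibody and condition. Starts and ends were read as 1-based and inclusive. Gaps, clusters (5 kb), 1 Mb bins (by peak centre), regions merged over both lists, distances and edge shifts were computed with Python 3.11.15, numpy 2.4.6, pandas 2.3.3 and scipy 1.17.1, and the scripts were tested on simulated data. Shares carry Wilson 95% intervals and ratios of numbers exact conditional binomial intervals. With 1 library per group no test was run.

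The members, distances and alternatives were chosen with earlier results of these data known. Regions were named by rule: the 3 chromosomes with the lowest and the 3 with the highest ratio, the 2 densest and 2 sparsest in control, the 5 bins lowest and 5 highest in standardised difference, the 3 longest gaps and 3 largest clusters of each list, the 3 pairs with most outward and 3 with most inward change, and, of each kind, 2 joined peaks, 2 runs and 2 remote peaks. The gene table at hand is of another build, so genes and sequences of these regions were not analysed here.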

Additional observations from a re-analysis of the deposited data

Results flagged for a closer look

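Outside the chromosomes compared, the butyrate H3K27ac list held 12 peaks on the mitochondrial chromosome, which covered 9449 bp, and the control list held 0. This was singled out because the signal lay in data that no comparison used and was above the control library. Mitochondrial DNA is not packaged with histones. The lists of the other antibodies also held mitochondrial peaks, 3 to 15 per list over 773 to 15754 bp, in control and butyrate libraries alike. The cause was not tested.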

How the results depend on the processing

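The 11 results were recomputed under 18 settings, which gave 64 values, of which 24 stayed within the 95% interval of the main value and 40 moved out of it. The 4 values of the other sign were all differences in gaps or clusters, whose main intervals held 0. Differences in share are butyrate minus control in percentage points, with main values of 0.33 for gaps up to 5 kb, 0.46 for clusters of 3 or more and 8.13 for one-condition peaks within 1 kb. With peaks of at least 300 bp, the log2 ratios were -0.10 (number) and -0.11 (length), 65.4% of butyrate peaks were found, 35.5% of bins were lower, 19.6% of bins passed 1.5-fold (main value 17.1%), 28.7% of pairs had both edges within 50 bp, and the differences were 1.32 (clusters) and 4.22 (near peaks). With an equal number of widest peaks the log2 ratios were 0 and -0.054, 64.2% of control and 65.1% of butyrate peaks were found, 33.5% of bins were lower, 44.1% of pairs were wider, and the differences were 2.42 (gaps), 3.62 (clusters) and 4.14 (near peaks). With peaks up to 1 kb apart joined, the log2 ratio of number was -0.20, 61.9% and 71.2% were found, and the differences were -0.98 (gaps, interval -1.76 to -0.19), -0.96 (clusters, -1.68 to -0.25) and 6.55, so the first and second turned sign with intervals below 0. An overlap of 50% of the shorter peak gave 57.2% and 64.8% found and 32.6% of pairs within 50 bp. The gap difference was 1.41 at 2 kb and -0.46 at 10 kb, and the cluster difference 1.65 at 2 kb and -0.26 at 10 kb. The shares of bins lower and past 1.5-fold were 58.4% and 13.6% in 2 Mb bins, 37.5% and 22.7% in 500 kb bins, and 39.4% and 13.6% with butyrate scaled to the control total. Bins with at least 20 peaks gave 11.04% past 1.5-fold. Edges within 20 bp and 100 bp gave 12.6% and 55.0% of pairs, and distances of 500 bp and 5 kb gave differences of 5.86 and 9.67. The causes were not tested beyond what each setting fixes by construction.

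For the 16 named bins and chromosomes, 38 of 47 values under 3 settings lay within the main interval, and 6 had the other sign, all for chromosomes. With peaks of at least 300 bp these were chromosome 27 (log2 ratio 0.0111), chromosome 4 (0.0033) and chromosome 20 (0.051). With an equal number of widest peaks they were chromosome 28 (0.095), chromosome 4 (0.0998) and chromosome 20 (0.18, interval 0.0045 to 0.36). That setting puts the ratio of the whole list at 0 by construction. With the same minimum width, added after seeing the data, the gap classes above 200 to 500 bp, above 1 to 2 kb and above 1 Mb also changed sign, to 0.0033, 0.075 and -0.011. No paired analysis was possible because there was 1 library per group. Depth, animals, lane and immunoprecipitation are each tied to 1 library per condition, so none of them can be told apart from the treatment in any value given here. Peaks under 300 bp carried much of the drop in number.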

Other observations

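The order of peaks within each list was not that of position, and the sources used here do not say what set it. Read in that order and divided into 10 equal parts, the control list had 92.9% of its peaks found after butyrate in the first part, 42.3% in the part before the last and 54.4% in the last, while the median width went from 467 bp in the first part to 284 bp in the last. In the butyrate list the share found in control was 94.0% in the first part and 68.5% in the last, with a lowest value of 55.5%. On X, which was outside the comparison, the lists held 605 control and 466 butyrate peaks.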
